A study of Homo sapiens with 6 samples.

Results

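The comparison described here sets 22RV1 cells that stably express a short hairpin RNA against IMPA1 (shIMPA1) beside 22RV1 cells that stably express a control hairpin against luciferase (shLuc). All libraries that the labels place in these groups were taken, 2 shIMPA1 and 2 shLuc, which are 4 of the 6 libraries of the series. 22RV1 is an established human prostate cancer cell line. All cells were grown in RPMI-1640 with 10% FBS, and polyadenylated RNA was sequenced. The 2 remaining libraries carry a hairpin against IMPDH2 (shIMPDH2), an enzyme of guanine nucleotide synthesis, and serve here for a direct contrast between the knockdowns. The labels give a hairpin target and a replicate number. They do not say whether the replicates came from separate cultures, infections or hairpins. The p-values therefore reflect only how far replicate libraries differed, possibly for technical reasons, and what a hairpin or the making of its line does besides lowering the target cannot be told apart from the loss of the target.

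IMPA1 encodes inositol monophosphatase 1, which removes the phosphate from inositol monophosphates and so releases free myo-inositol. The enzyme works where de novo synthesis of inositol from glucose 6-phosphate and recycling of inositol phosphates meet, and it is inhibited by lithium. Free inositol is used to make phosphatidylinositol, the parent lipid of the phosphoinositides that carry phospholipase C, PI3-kinase and membrane traffic signals.

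Values are normalized read counts, that is reads per gene divided by 1 size factor per library. Changes are differences on the log2(value + 1) scale, and the change of a single library is its value minus the mean of both shLuc libraries on that scale. Values of a gene are given in the order of replicates 1 and 2, those of shLuc first and then those of shIMPA1. A gene is called when limma's Benjamini-Hochberg adjusted p, computed over all 17742 genes tested, is under 0.05. Counts of called list members stand beside the shares over all genes tested, which are 14% higher and 16.2% lower. These shares hold for the fit on all libraries. A fit without a shLuc library called far fewer of all genes, and one without shIMPA1 replicate 1 called more. List counts from such fits are therefore not to be set beside these shares. The 4 libraries held 26215122 to 27773294 reads in the listed genes, and the shIMPDH2 libraries held 20828900 and 22442454. The 10 most abundant genes took 4.19% to 5.23% of the reads of a library. In bulk RNA, fewer cells of a kind and less RNA per cell cannot be told apart.

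The identity of the cells was checked against marker genes. The luminal keratin genes KRT8 (71625 and 63788 in shLuc, 58623 and 52886 in shIMPA1) and KRT18 (7274 and 8524, then 6452 and 8252) were present in all 4 libraries and were not called. Of 9 luminal markers, 1 was higher and 4 were lower (1 and 3 without shLuc replicate 1, 0 and 3 without shLuc replicate 2, and 2 and 4 without shIMPA1 replicate 2). Keratins that mark basal prostate epithelium were nearly absent from shLuc and differed between the shIMPA1 libraries. KRT5 stood at 0.900 and 1.75 in shLuc, at 0 in shIMPA1 replicate 1, at 88.9 in shIMPA1 replicate 2 and at 79.7 and 84.4 in shIMPDH2. KRT14 followed the same order, at 0 and 0.875 (shLuc), 1.80 and 54.4 (shIMPA1) and 55.5 and 37.1 (shIMPDH2). KRT15 stood at 0 and 3.50 (shLuc), 10.8 and 26.7 (shIMPA1) and 49.7 and 76.5 (shIMPDH2). The summed level of these 3 of 4 named basal markers was 0.900 and 6.13 (shLuc), 12.6 and 170.0 (shIMPA1) and 185 and 198 (shIMPDH2). It separated shIMPA1 replicate 2 and the shIMPDH2 libraries from shLuc and from shIMPA1 replicate 1, and its part in the differences between the shIMPA1 libraries, and in the contrast with shIMPDH2, was not tested. Whether shIMPA1 replicate 2 holds material of another line was not tested either. IMPDH2, the target in the shIMPDH2 line, stood at 4435 and 5055 in shIMPA1, beside 4269.9 and 5032 in shLuc and 2932 and 3166 in shIMPDH2. A change without shIMPA1 replicate 2 is that of replicate 1 alone. KRT14 and KRT15 were called higher. The KRT14 call was lost without shLuc replicate 1, shLuc replicate 2 or shIMPA1 replicate 2 (limma adjusted p = 0.222, 0.119 and 0.356), and the KRT15 call without shLuc replicate 1 (limma adjusted p = 0.0559). No endothelial marker was tested, 0 of the 2 leukocyte markers tested were called, and 3 of 4 stromal markers tested were lower (1 without either shLuc library). All 4 tested markers of other prostate cell lines were called, 1 higher and 3 lower (0 and 2 without shLuc replicate 1), and their summed level was 978 and 1107 in shLuc and 309.6 and 452 in shIMPA1.

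The targeted transcript was moderately lower in both knockdown libraries, and its paralog IMPA2 and the inositol synthase ISYNA1 were lower as well. IMPA1 (chromosome 8 of GRCh38, 81657961 to 81686693, protein coding) stood at 1621 and 1331 in shLuc and at 957 and 1101 in shIMPA1. Both shIMPA1 libraries lay below both shLuc libraries, at 64.8% and 74.6% of the shLuc mean, and the lower value was that of replicate 1. The log2 fold change was -0.52 (SE 0.13, limma adjusted p = 0.0145), with -0.62 in replicate 1 and -0.42 in replicate 2. It was -0.37 and not called without shLuc replicate 1 (limma adjusted p = 0.159), and without a mean-variance trend it was not called (limma adjusted p = 0.0671). Against shIMPDH2 (1795 and 1842), IMPA1 was also lower (log2 fold change -0.82, limma adjusted p = 0.00148).

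IMPA2, which encodes the other inositol monophosphatase, stood at 1239 and 1167 in shLuc and at 644 and 524 in shIMPA1, a clear separation of the groups. Its log2 fold change was -1.05 (SE 0.13, limma adjusted p = 0.000286). ISYNA1, the synthase that commits glucose 6-phosphate to inositol, stood at 3601 and 3598 in shLuc and at 2912 and 1802 in shIMPA1. SLC2A13, the proton-coupled inositol transporter, stood at 711 and 618 in shLuc and at 467 and 307 in shIMPA1. Both genes were called lower (log2 fold changes -0.65 and -0.81), and in both the drop was greater in replicate 2, although IMPA1 itself was lower in replicate 1. The ISYNA1 call was lost without shLuc replicate 1, shLuc replicate 2 or shIMPA1 replicate 2 (limma adjusted p = 0.124, 0.123 and 0.0665), and the SLC2A13 call without the first shLuc library (limma adjusted p = 0.10). SLC5A3, the sodium-coupled inositol transporter, stood at 846 and 729.8 in shLuc and at 727 and 726 in shIMPA1 and was not called (limma adjusted p = 0.564). INPP1, which removes a phosphate from inositol bisphosphate upstream of the monophosphatase, stood at 72.0 and 75.3 in shLuc and at 128 and 100.1 in shIMPA1. It was called higher (log2 fold change 0.62), a call lost without shLuc replicate 1, shLuc replicate 2 or shIMPA1 replicate 1 (limma adjusted p = 0.200, 0.160 and 0.125). In all, 5 of 8 genes of inositol synthesis and uptake were called, beside 30.2% of all genes tested. Of these, 1 was higher, beside 14% of all genes, and 4, among them the hairpin's own target IMPA1, were lower, beside 16.2%. These counts were 0 and 1 without shLuc replicate 1, and 0 and 3 without shLuc replicate 2.

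**Figure D1:**
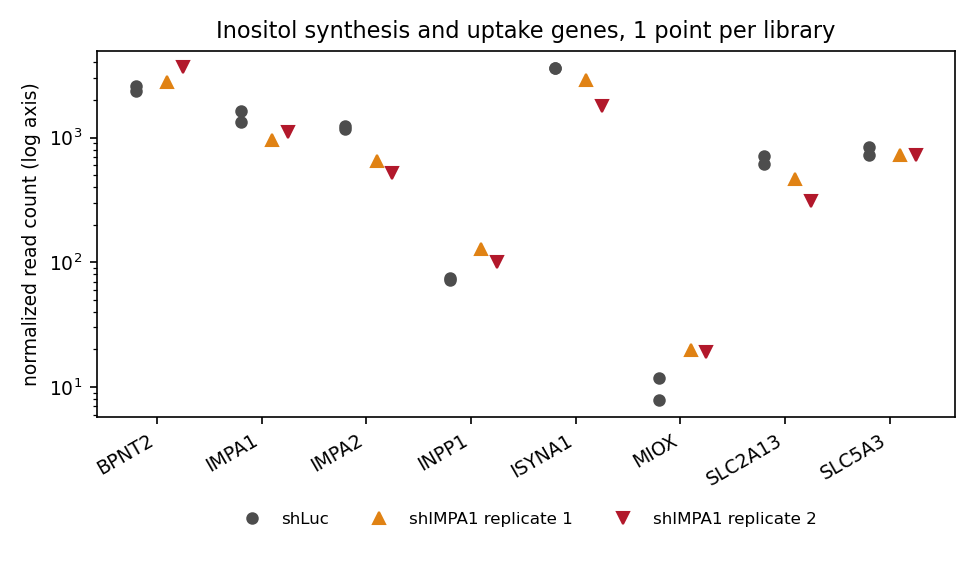
Normalized read counts (log axis) of the 8 genes of inositol synthesis and uptake, 1 point per library. The shIMPA1 points of IMPA1, IMPA2, ISYNA1 and SLC2A13 lie below both shLuc points, and replicate 2 is the lower of the shIMPA1 libraries for all of these but IMPA1.

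Downstream of inositol, the medians of 3 lists were near or slightly below that of all genes (0.02), of which 14% were higher and 16.2% lower. Of 24 phosphatidylinositol synthesis, transfer and kinase genes, 4 were higher and 2 lower (median log2 fold change -0.02), so that the count higher was near the all-gene share and the count lower was under it. PITPNA, a phosphatidylinositol transfer protein (2554 and 2839.6 in shLuc, 3946 and 4086 in shIMPA1), and PIK3C2A, a class II PI3-kinase (1758 and 1856, then 2591 and 3392), rose, with log2 fold changes of 0.58 and 0.71. Of 27 phosphoinositide phosphatases and phospholipases C, 5 were higher and 7 lower (median -0.13). PLCH1, a phospholipase C, stood at 401 and 389 in shLuc and at 179 and 92.3 in shIMPA1 (limma log2 fold change -1.61, SE 0.26, adjusted p = 0.00108), and the drop was larger in replicate 2. INPP4B, a phosphatase of the PI3-kinase product PI(3,4)P2, stood at 192 and 175 in shLuc and at 52.1 and 104 in shIMPA1, so that here replicate 1 was the lower. Among 14 inositol phosphate kinases and IP3 receptors, 3 were higher and 3 lower. The receptors themselves moved apart. ITPR1, a calcium channel of the endoplasmic reticulum opened by IP3, stood at 30.6 and 31.5 in shLuc and at 99.6 and 133 in shIMPA1 (limma log2 fold change 1.86, SE 0.28, adjusted p = 0.000816), while ITPR3 fell from 1577 and 1709 to 1196 and 978 (log2 fold change -0.60). The calls of PITPNA and PIK3C2A were lost without shLuc replicate 1, that of ITPR3 without shLuc replicate 2 and that of INPP4B without either. Without shLuc replicates 1 and 2 in turn, the counts for the 3 lists were 0 and 2 higher with 0 and 0 lower, 2 and 3 higher with 3 and 1 lower, and 1 and 1 higher with 2 and 0 lower. The kinase list held more genes higher and lower without shIMPA1 replicate 1, in a fit that called more of all genes too.

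FOXO factors are active when PI3-kinase signalling is low. Of 15 FOXO and PI3-kinase feedback genes, 5 rose and 0 fell, beside 14% and 16.2% of all genes tested (median log2 fold change 0.27). CCNG2, an atypical cyclin, stood at 1060.3 and 1104 in shLuc and at 2166 and 2061 in shIMPA1, an even rise of 1.00 and 0.93 in the replicates. KLF6, a zinc-finger transcription factor, stood at 487 and 589.8 in shLuc and at 1706 and 921 in shIMPA1, and TXNIP, which binds thioredoxin and limits glucose uptake, at 3162 and 3409, then 6513 and 4619. For both, replicate 1 was the higher. The receptor genes IGF1R and ERBB3 were also called higher (log2 fold changes 0.59 and 0.35). Without shLuc replicate 1, KLF6, TXNIP, IGF1R and ERBB3 lost their calls, and without shLuc replicate 2 IGF1R and ERBB3 did. ERBB3 also lost its call without shIMPA1 replicate 2.

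Of 17742 genes tested, 2479 (14%) were called higher and 2882 (16.2%) lower, and 694 (3.91%) and 1227 (6.92%) of these changed more than 2-fold. For every called gene both shIMPA1 libraries lay on the same side of both shLuc libraries, which the test itself favours. Over all genes tested both lay above both shLuc libraries in 33.7% and below both in 32.7%, and in the rest the groups overlapped or the shIMPA1 libraries lay on different sides. Replicate 2 had the larger change in 4137 of the 5361 called genes (77.2%), and this held for 72.9% of the genes called higher and 80.8% of those called lower. The median change of genes called higher was 0.62 in replicate 1 and 0.77 in replicate 2, and that of genes called lower was -0.68 and -1.07. More than 2-fold above the shLuc mean were 760 genes (4.28%) in replicate 1 and 1004 (5.66%) in replicate 2, and more than 2-fold below it were 939 (5.29%) and 1932 (10.9%). Both libraries passed that size together for 549 higher and 765 lower genes, replicate 2 alone for 455 and 1167, and replicate 1 alone for 211 and 174. Only 2 genes passed it in opposite directions. Set against each other, shIMPA1 replicate 2 exceeded replicate 1 more than 2-fold in 1.48% of genes and fell below it by that size in 3.79%, while the shLuc libraries differed by that size in 1.5%. The SD over genes of the log2 difference was 0.47 between the shIMPA1 libraries and 0.31 between the shLuc libraries.

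When each shIMPA1 library was set alone against shLuc, with its variation assumed to be like that of the other groups, replicate 1 gave 2505 genes higher and 2850 lower and replicate 2 gave 3728 and 4212. The 4405 genes called the same way in both were 82.3% of the replicate 1 calls and 55.5% of the replicate 2 calls, and 10 genes were called in opposite directions. With both shIMPA1 libraries but no shLuc replicate 1 the counts were 1001 higher and 1188 lower, and with no shLuc replicate 2 they were 1012 and 1135. By biotype, 33.9% of 14084 protein-coding genes, 18.0% of 816 lincRNA genes and 15.7% of 1124 antisense genes were called.

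**Figure D2:**
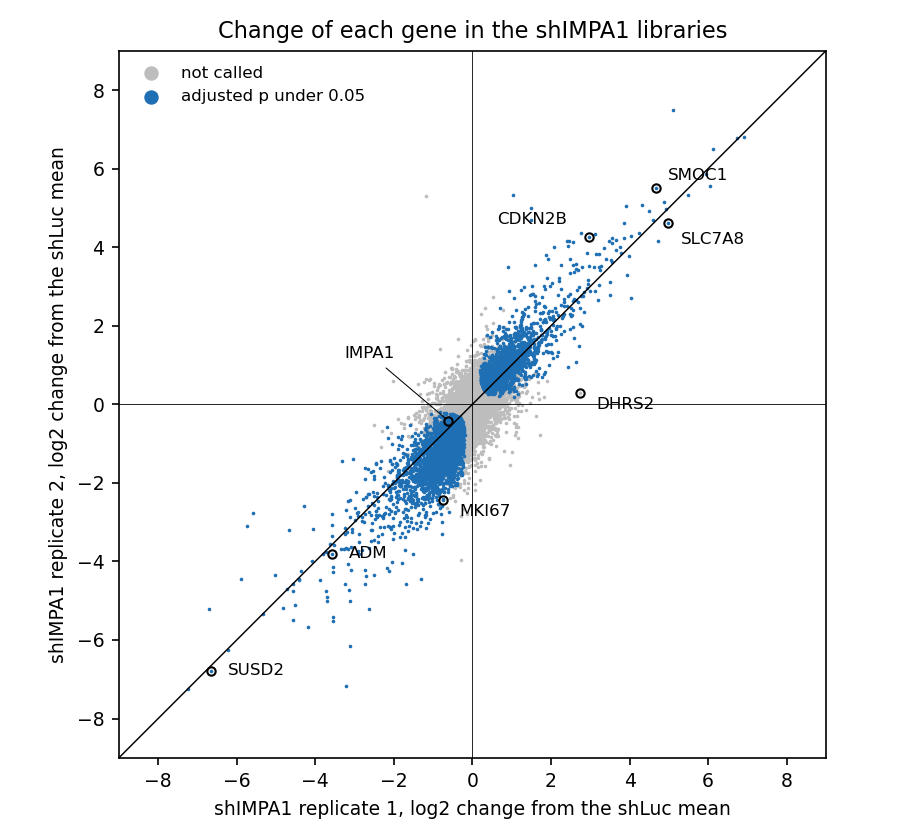
Log2 change from the shLuc mean of each gene tested, with shIMPA1 replicate 1 on the x axis, replicate 2 on the y axis and the line of equal change. Called genes (blue) lie in the quadrants where both libraries moved the same way, and most of those called lower lie below the line, which is the side of a larger drop in replicate 2.

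Abundant genes are here those with a mean of at least 1000 over the 4 libraries, and the largest rise among them was that of SMOC1. This gene of a secreted calcium-binding matrix protein stood at 192 and 204 in shLuc and at 5044 and 8976 in shIMPA1 (33.9-fold, SE 0.21 on the log2 scale, limma adjusted p = 1.10e-07). S100P, a small calcium-binding protein, stood at 518 and 398 in shLuc and at 10324 and 13718 in shIMPA1 (26.1-fold). CDKN2B, which encodes the CDK4 and CDK6 inhibitor p15, stood at 289.8 and 284 in shLuc and at 2233 and 5549 in shIMPA1. It rose 12.2-fold (SE 0.30 on the log2 scale, limma adjusted p = 1.83e-05), with log2 changes of 2.96 and 4.27, so that the libraries agreed in direction and not in size. DIO2, which activates thyroid hormone, stood at 795 and 785 in shLuc and at 3639 and 6946 in shIMPA1. PLA2G4A, a cytosolic phospholipase A2 that releases arachidonic acid, stood at 454 and 415, then 1190.1 and 3014. In both genes replicate 2 was the higher. BASP1, a membrane-bound signalling protein, went the other way, with 1344 and 1443 in shLuc and 12092 and 10198 in shIMPA1, as did ARHGEF2, a microtubule-bound guanine nucleotide exchange factor, with 688 and 778, then 4877 and 2999.9.

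The largest fall was that of SUSD2, a sushi-domain membrane protein, from 7462 and 9183 in shLuc to 80.8 and 74.2 in shIMPA1 (106-fold, limma adjusted p = 1.57e-09). SYTL2, a Rab27 effector of vesicle docking, stood at 4814 and 5140.1 in shLuc and at 521 and 564 in shIMPA1, and GUCY1A2, a subunit of the nitric oxide receptor, at 3397 and 3238, then 434 and 482. ATP1B1, a subunit of the sodium pump, stood at 1968 and 2169 in shLuc and at 427 and 485 in shIMPA1. The shIMPA1 values of these genes were close to each other and far below shLuc. PLA2G3, a secreted phospholipase A2, was uneven, with 4301 and 4366 in shLuc and 1327 and 329.6 in shIMPA1 (log2 changes -1.71 and -3.71). ID1 and ID4, inhibitors of basic helix-loop-helix transcription factors and targets of BMP signals, stood at 9021 and 8044 (ID1) and 4985 and 3896 (ID4) in shLuc. In shIMPA1 they stood at 2563 and 1144 (ID1) and 1301 and 833 (ID4), lower in replicate 2 for both. HMGN5, a nucleosome-binding protein, stood at 9119 and 7663 in shLuc and at 4189 and 1232 in shIMPA1, and leaving out shLuc replicate 1 ended its call (limma adjusted p = 0.0691). The other 27 of the 28 genes of this kind kept their calls in every fit that left out 1 library.

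**Figure D3:**
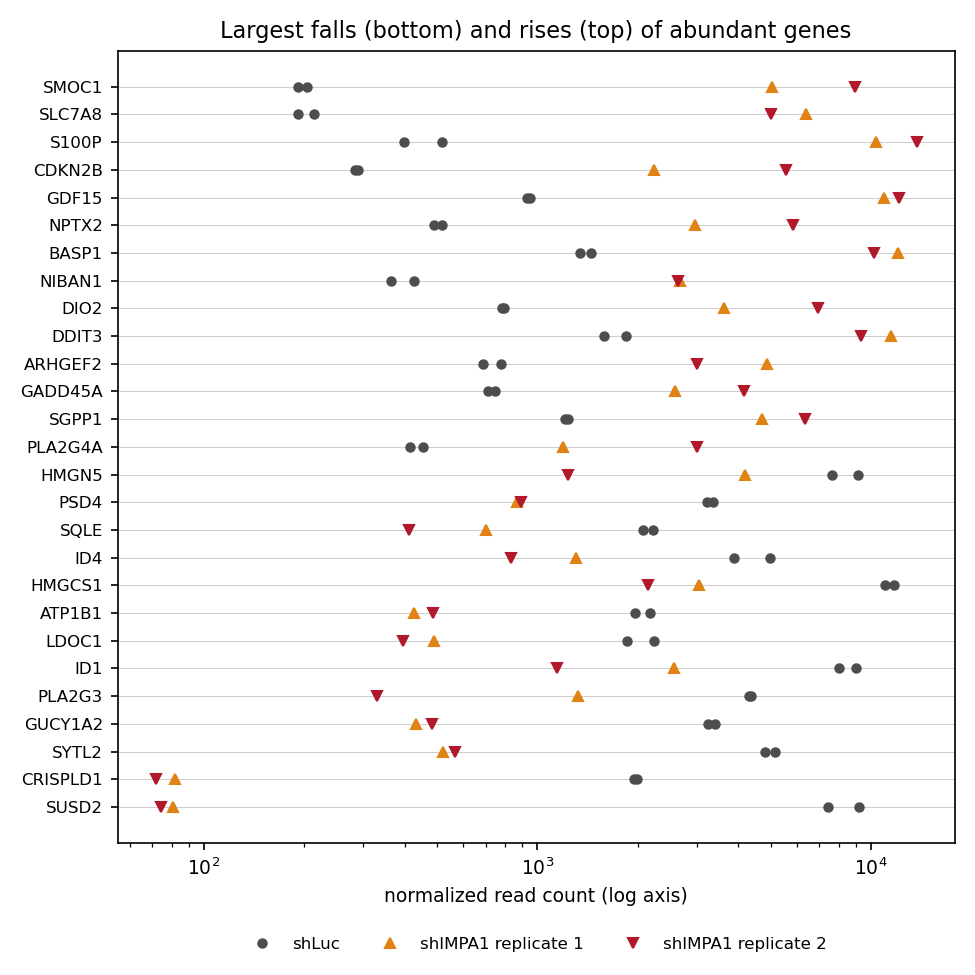
Normalized read counts (log axis) of the 14 largest rises and 13 of the 14 largest falls among called genes with a mean of at least 1000, 1 point per library. The shLuc points lie close together for each gene, and the distance between the shIMPA1 points ranges from none to be seen (NIBAN1, PSD4) to more than 2-fold (for example CDKN2B, PLA2G3 and HMGN5).

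Some genes changed by the same amount in both libraries, within 0.1 on the log2 scale. KCNG1, a modifier subunit of voltage-gated potassium channels, stood at 17.1 and 16.6 in shLuc and at 543 and 557 in shIMPA1 (30.9-fold, limma adjusted p = 9.78e-08). NIBAN1, a stress-induced regulator of translation and survival, stood at 364 and 425, then 2671 and 2644, and LARP6, which binds collagen mRNAs, at 232 and 226, then 1492 and 1402. CHST2, a sulfotransferase of cell-surface glycans, stood at 207 and 224, then 1225 and 1189. Among even falls were VIM, the intermediate filament vimentin (658 and 753, then 40.4 and 43.1), and MME, the cell-surface peptidase neprilysin (863 and 849, then 176 and 174). TMEM47 (851 and 880.3, then 147 and 152) and RHOBTB1 (652 and 648, then 119 and 125) fell as evenly.

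Other genes separated the shIMPA1 libraries, and these are given as values. DHRS2, a mitochondrial reductase, stood at 2187 and 2290.0 in shLuc, at 14982 in shIMPA1 replicate 1 and at 2752 in replicate 2. It was not called (limma adjusted p = 0.0510). TMEFF2, a membrane protein with follistatin domains that is abundant in prostate, stood at 1310.5 and 1405 in shLuc, at 539 in replicate 1 and at 1629 in replicate 2. MKI67, the Ki-67 proliferation marker, stood at 3822 and 4304 in shLuc, at 2415 in replicate 1 and at 753 in replicate 2. F3, the coagulation starter tissue factor, stood at 129 and 145, then 731 and 2449, and PTPRZ1, a receptor tyrosine phosphatase, at 213 and 208, then 808 and 2742. BACE2, an aspartic protease, stood at 540.0 and 623, then 1204 and 3791. Leaving out either shLuc library ended the call of MKI67 (limma adjusted p = 0.0704 and 0.0966) and leaving out shLuc replicate 1 that of BACE2 (limma adjusted p = 0.0567). No gene with a mean of at least 200 lay more than 0.5 above both shLuc libraries in one shIMPA1 library and more than 0.5 below both in the other (log2 scale).

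Nearly every gene of DNA replication measured fell. Of 34 genes of origin licensing and the replication fork, 33 fell and 0 rose, beside 16.2% and 14% of all genes tested, and the median log2 fold change was -1.23. All but GINS3 (795 and 941 in shLuc, 927 and 953 in shIMPA1) were called. In 32 of the 34 genes the value was lower in replicate 2, and the list medians were -0.83 in replicate 1 and -1.61 in replicate 2. PCNA, the sliding clamp of the DNA polymerases, stood at 10758 and 11346 in shLuc and at 4640.2 and 2977 in shIMPA1 (limma log2 fold change -1.57, SE 0.18, adjusted p = 0.000153). UHRF1, which brings the maintenance methyltransferase to replicated DNA, stood at 2244 and 2404 in shLuc and at 1062 and 520.3 in shIMPA1. GINS4, a subunit of the replicative helicase, stood at 1088 and 1172, then 489 and 283, and ORC6, a subunit of the origin recognition complex, at 2397 and 2346, then 1496 and 905. In all 3 the groups were apart, and replicate 2 was the lower. MCM3, a subunit of the same helicase, was even between the libraries, with 12998 and 13375 in shLuc and 4732 and 4804 in shIMPA1. The list held 27 and 24 calls without shLuc replicate 1 or 2.

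Promoters of these genes were read for the motifs known from cell-cycle genes, because the members moved together. Sequences are from RefSeq (GRCh38.p14), from 250 bases before to 50 after each gene's start. A window was found for 12298 of the tested genes. The motif TTTNNCGC, bound by E2F factors, was present on either strand in 10.2% of these, in 19 of the 29 replication genes with a window (65.5%) and in 2 of the 29 mitotic genes with a window (6.9%). The motif TTTGAA, known as CHR and bound by the DREAM and MuvB complexes, was present in 9.7% of all windows, in 0 of the replication genes and in 17 of the mitotic genes (58.6%). The pentamer CCAAT was present in 36.5%, 55.2% and 75.9%, in the same order of all, replication and mitotic genes. It was not particular to these lists. Among lists described below it was present in 66.7% of sterol, 60% of ATF4 and CHOP and 54.5% of repair genes. It was present in 43.8% of synthetase, 36% of lysosome, 28.6% of heat shock and 17.6% of transporter genes. A match is a description of the letters and not of a bound site. The following 60-base stretches show the motif in capitals for 2 genes of each list, each read 5′ to 3′ on the gene's own strand. The PCNA stretch is chr20:5126648-5126707 (minus strand) and the ORC6 stretch is chr16:46689510-46689569 (plus strand), both with the E2F motif as its reverse complement. The ZWINT stretch is chr10:56361260-56361319 (minus strand), with CHR as its reverse complement, and the CDK1 stretch is chr10:60778143-60778202 (plus strand), with CHR as spelled.
PCNA: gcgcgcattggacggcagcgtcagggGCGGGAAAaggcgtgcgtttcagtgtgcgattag
ORC6: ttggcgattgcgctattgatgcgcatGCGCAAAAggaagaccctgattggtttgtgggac
ZWINT: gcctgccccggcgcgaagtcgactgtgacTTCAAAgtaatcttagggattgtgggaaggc
CDK1: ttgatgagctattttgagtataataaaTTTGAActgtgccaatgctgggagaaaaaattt

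Over all 12298 genes with a window, 17.7% were called lower and 14.9% higher. Among the 1189 genes with the CHR motif 24.3% were called lower and 13.1% higher, and among the 500 with both CHR and CCAAT 31.6% were called lower. Among the 1259 genes with the E2F motif 19.8% were called lower and 12.9% higher. The motif counts contain the list members themselves, and no test was made of them.

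Of 38 kinetochore, spindle and mitotic kinase genes, 35 fell and 0 rose (median log2 fold change -1.11), and of the lists with at least 8 genes this one had the widest gap between the medians of the shIMPA1 libraries. The medians were -0.52 in replicate 1 and -1.70 in replicate 2, and all 38 genes were lower in replicate 2 than in replicate 1. CDK1, the mitotic kinase whose promoter is shown above, stood at 12246 and 9291 in shLuc and at 6495 and 2676 in shIMPA1 (limma log2 fold change -1.36, SE 0.31, adjusted p = 0.00809). ZWINT, a kinetochore protein, stood at 7065 and 6899, then 3745 and 1834, and the spindle checkpoint kinase TTK at 2478 and 1973, then 1076 and 420.2. For these the groups did not overlap, and replicate 2 lay more than 2-fold below replicate 1. BIRC5, which encodes survivin of the chromosomal passenger complex, stood at 4402 and 4529, then 3761 and 1593, so that its replicate 1 value was close to shLuc. The BIRC5 call was lost without shLuc replicate 1, shLuc replicate 2 or shIMPA1 replicate 2 (limma adjusted p = 0.172, 0.188 and 0.164). CENPA (645 and 587 in shLuc, 625 and 276 in shIMPA1), AURKA and CDC25C were not called. The list held 9 calls without shLuc replicate 1 (CDK1 lost its call, limma adjusted p = 0.102) and 13 without shLuc replicate 2, while without shIMPA1 replicate 1 it held 38 and without shIMPA1 replicate 2 it held 28.

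Repair genes of homologous recombination and the Fanconi pathway followed the same order, with 23 of 26 lower and 0 higher (median log2 fold change -1.02, -0.63 in replicate 1 and -1.46 in replicate 2). BARD1, the partner of BRCA1, stood at 414 and 419 in shLuc and at 210.0 and 135 in shIMPA1, XRCC2, a recombination factor, at 1816 and 1562, then 841 and 474, and FANCI, of the Fanconi core substrate pair, at 3238 and 3734, then 1999.7 and 1130.2. PALB2, ATR and ATRIP were not called. The repair list held 11 and 10 calls without shLuc replicate 1 or 2. Among 28 G1 cyclins, CDK inhibitors and E2F genes, 14 fell and 4 rose (median -0.40). The 4 that rose are inhibitors of cell-cycle entry. They were CDKN2B, CDKN1B (11469.5 and 9824 in shLuc, 17652 and 16820.0 in shIMPA1), CDKN2A (3340.1 and 2917, then 4022 and 4394) and the pocket protein gene RBL2 (1743 and 1916, then 2172 and 3187). CDKN1A, which encodes p21, was not called (log2 fold change 0.22, limma adjusted p = 0.168). CCNE2, an S-phase cyclin (1601 and 1173, then 655 and 386), and E2F7, a repressor E2F (514 and 511, then 238 and 106), were among those that fell. The G1 list without shLuc replicate 1 or 2 held 8 and 5 genes lower and 2 higher in each case, and CDKN2A and RBL2 were not called in either fit.

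**Figure D4:**
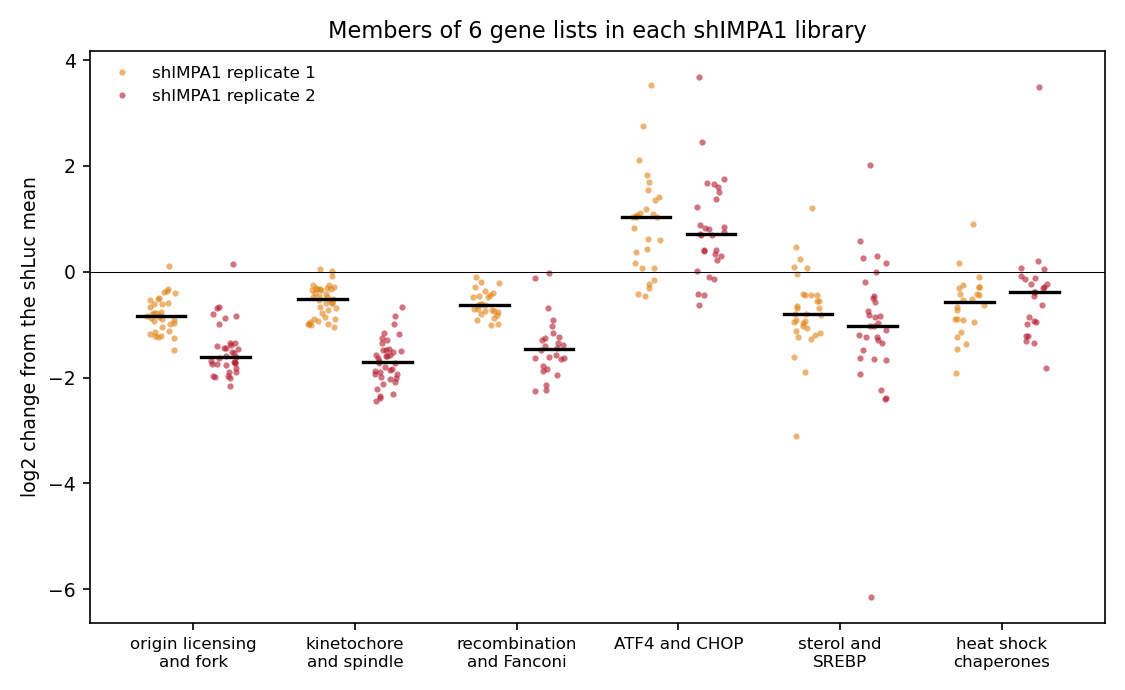
Log2 change from the shLuc mean of each tested member of 6 gene lists in shIMPA1 replicates 1 and 2, with the median as a bar. The 3 cell-cycle lists lie lower in replicate 2, with medians of -1.61, -1.70 and -1.46. The medians of the ATF4 and heat shock lists lie closer to 0 in replicate 2.

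Most genes of the ATF4 and CHOP stress response rose, and here replicate 1 had the larger median. ATF4 is a transcription factor whose translation rises when eIF2 alpha is phosphorylated, and CHOP, encoded by DDIT3, is one of its targets. Of 29 regulators and effectors, 18 rose and 2 fell, beside 14% and 16.2% of all genes. The median log2 fold change was 0.73 (1.04 in replicate 1 and 0.71 in replicate 2). The members themselves were split, with 15 lower and 14 higher in replicate 2 than in replicate 1. GDF15, a secreted stress cytokine, stood at 932 and 949 in shLuc and at 10947 and 12117 in shIMPA1 (limma log2 fold change 3.61, SE 0.12, adjusted p = 2.85e-08). DDIT3 stood at 1844 and 1580.4 in shLuc and at 11467 and 9360.4 in shIMPA1, and the glutathione-degrading enzyme CHAC1 at 69.3 and 67.4, then 298 and 232. TRIB3, a pseudokinase that restrains ATF4 and CHOP, stood at 5309 and 5540.0, then 17630.2 and 15344. For each of these both shIMPA1 values were far above both shLuc values. ASNS, asparagine synthetase and a standard ATF4 target, was an exception, with 5341 and 5488 in shLuc, 9578 in replicate 1 and 5482 in replicate 2. The 2 members that fell were the eIF2 alpha kinase genes EIF2AK2 and EIF2AK4 (log2 fold changes -0.45 and -0.42), and both lost their calls without either shLuc library. The count of 18 moved between 14 and 21 when 1 library was left out.

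Transport and charging of amino acids, which ATF4 also controls, moved with it in part. Of 22 amino acid transporters of the plasma membrane, 11 were higher and 4 lower (median log2 fold change 0.56, with 0.68 in replicate 1 and 0.30 in replicate 2). SLC3A2, the heavy chain shared by several exchangers, stood at 4439 and 4444 in shLuc and at 17781 and 11242 in shIMPA1 (limma log2 fold change 1.67, SE 0.18, adjusted p = 0.000108). Its light chains SLC7A8 (191 and 214, then 6400.3 and 5001), SLC7A5 (2405 and 3029, then 6833 and 4790.2) and SLC7A11 (1126 and 1201, then 2623 and 1383) were all higher, and replicate 1 exceeded replicate 2 in each. SLC43A1, a carrier of large neutral amino acids, stood at 99.0 and 94.5, then 333 and 329. SLC38A2, a sodium-coupled carrier of small neutral amino acids (11413 and 11826, then 6808 and 6369), and the taurine carrier SLC6A6 (752 and 848, then 326 and 337) fell. Without either shLuc library 7 were higher, and without shLuc replicate 1, shLuc replicate 2 or shIMPA1 replicate 1 the SLC7A11 call was lost (limma adjusted p = 0.195, 0.146 and 0.110).

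Of 20 cytosolic aminoacyl-tRNA synthetases, 7 were higher and 2 lower (median 0.14). SARS1 (3293 and 3763 in shLuc, 8723 and 8803 in shIMPA1) and WARS1 (1275 and 1423, then 3198 and 3229) were even between the replicates. AARS1 (6539.9 and 7033, then 14549 and 8616) and MARS1 (4772 and 5152, then 9779.5 and 8119) were higher in replicate 1, and AARS1 lost its call without either shLuc library. KARS1 and RARS1 were the 2 that fell (log2 fold changes -0.43 and -0.53), and both lost their calls without either shLuc library. The CARE motif TGATGNAA, read by ATF4 with a C/EBP partner, was present on either strand in 1.7% of all promoter windows. It was present in 6 of 16 synthetase genes (37.5%), 4 of 17 transporter genes (23.5%) and 4 of 25 ATF4 and CHOP genes (16%). Of these last 4, ATF3 and CHAC1 were called higher, and ASNS and PPP1R15B were not called. Over all 206 genes with the motif 17.5% were called higher and 21.4% lower, beside 14.9% and 17.7% of all genes with a window. No test was made of these counts. Among 24 serine, glycine and one-carbon enzymes, 4 were higher and 7 lower. Those higher included the mitochondrial folate enzyme ALDH1L2 (1734 and 1936, then 5054 and 3511), and those lower the folate carrier SLC19A1 (856 and 912, then 594 and 438). PHGDH, the start of serine synthesis, stood at 6663 and 7202 in shLuc, at 7801 in replicate 1 and at 3483 in replicate 2 and was not called. The one-carbon list without shLuc replicate 1 or 2 held 1 higher in each case and 4 and 3 lower, and without shIMPA1 replicate 2 it held 8 higher.

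Many chaperones of the heat shock response fell in both libraries, with the lower median in replicate 1. Of 24 genes, 13 fell and 1 rose (median log2 fold change -0.49, -0.58 in replicate 1 and -0.38 in replicate 2), and 19 of the 24 were higher in replicate 2 than in replicate 1. HSP90AA1, the inducible cytosolic HSP90, stood at 107400.0 and 92695 in shLuc and at 38522 and 40272 in shIMPA1 (limma log2 fold change -1.34, SE 0.18, adjusted p = 0.000368). HSPA8, the constitutive HSP70, stood at 43600.0 and 41647, then 19422 and 22388, and the small heat shock protein HSPB8 at 567 and 665, then 162 and 173. The gene that rose was CRYAB, a small heat shock protein with few reads (0.900 and 3.50 in shLuc, 4.49 and 31.9 in shIMPA1, 18.5 and 15.7 in shIMPDH2), and its call was lost without either shLuc library or shIMPA1 replicate 2.

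In the endoplasmic reticulum, 8 of 26 genes were lower and 7 higher (median log2 fold change -0.15). The chaperone genes HSP90B1 (55008 and 59389.7 in shLuc, 25121 and 25174 in shIMPA1) and CALR (22865 and 25716, then 12539 and 14354) and the secreted survival factor MANF (4228 and 4788, then 1454 and 1635) were lower in both libraries. The transcription factor XBP1 (1955 and 2369, then 3471 and 4076), the sensor ATF6 (941 and 1047, then 1699.9 and 2115) and the degradation adaptor SEL1L (1371 and 1431, then 2365 and 2579.7) were higher. Leaving out shLuc replicate 1 left 4 higher. Of 31 proteasome subunits 7 were lower and 0 higher, and of 75 cytosolic ribosomal proteins 9 were lower and 0 higher, which is 12% beside 16.2% of all genes. The ribosomal protein genes differed between the shIMPA1 libraries, since 68 of the 75 were higher in replicate 2 than in replicate 1. Their medians were -0.15 in replicate 1 and 0.12 in replicate 2. The shLuc libraries differed in these genes too, with a median log2 difference of -0.09 (replicate 2 minus replicate 1). The summed levels were 3069150 and 2679740 in shLuc and 2594970 and 3071650 in shIMPA1. Between the shIMPA1 libraries, transcripts of the mitochondrial genome went the other way, with all 13 lower in replicate 2. Their medians were -0.49 in replicate 1 and -0.81 in replicate 2. Of these 13, 11 were called lower, among them MT-ATP6 (21751 and 23815 in shLuc, 14398 and 9253 in shIMPA1) and MT-ND1 (17596 and 18605, then 14324 and 10814). Without shLuc replicate 1, shLuc replicate 2 or shIMPA1 replicate 2 that count was 4, 1 and 6, the count of proteasome subunits was 2, 4 and 11, and that of ribosomal proteins was 3, 6 and 13. Some proteasome and ribosomal protein genes were called higher without shIMPA1 replicate 1, in a fit that called more of all genes higher too. MT-ATP6 lost its call without shLuc replicate 2 and MT-ND1 without either shLuc library or shIMPA1 replicate 2.

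Most genes of sterol synthesis fell. Of 32 genes of sterol synthesis, uptake and their SREBP regulators, 24 fell and 2 rose, beside 16.2% and 14% of all genes, with a median log2 fold change of -0.84 (-0.79 in replicate 1 and -1.03 in replicate 2). HMGCS1, at the entry of the mevalonate pathway, stood at 11042 and 11718 in shLuc and at 3042 and 2149 in shIMPA1 (limma log2 fold change -2.15, SE 0.16, adjusted p = 6.90e-06). INSIG1, which retains SREBP in the endoplasmic reticulum, stood at 6559 and 6869, then 2771 and 1767. The genes that rose were ABCG1, a sterol exporter (35.1 and 35.9, then 83.5 and 147), and the sterol reductase TM7SF2. SREBF1 fell (log2 fold change -0.73). TM7SF2 lost its call without shLuc replicate 1. Leaving out shLuc replicate 1 or 2 left 20 genes lower in each case, and 1 and 2 higher.

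Of 25 fatty acid genes, 5 were higher and 8 lower, beside 14% and 16.2% of all genes tested, shares that apply to the counts of oxidation, glycolysis and hypoxia genes too. SCD, the stearoyl-CoA desaturase, stood at 13254 and 15569 in shLuc and at 42672 and 31922 in shIMPA1, while FADS1, a desaturase of polyunsaturated chains, stood at 7112 and 7406, then 4698 and 2428. Among oxidation genes (6 of 25 higher, 3 lower), PDK4, which shuts the pyruvate dehydrogenase gate, stood at 11636 and 13495, then 28779 and 33456, and PPARGC1A, the coactivator of mitochondrial genes, at 32.4 and 35.0, then 164 and 404. Glycolysis leaned lower, with 13 of 31 genes lower and 3 higher (median -0.25). LDHB (73517 and 65683, then 32886 and 26324), LDHA (12315 and 13357, then 6458 and 6250.0), PFKP (477 and 555, then 136 and 180.3) and the lactate exporter SLC16A3 (2729.9 and 2514, then 1044 and 827) fell, while the glucose entry genes SLC2A1 and HK2 rose (log2 fold changes 0.89 and 0.70). Of 23 hypoxia-induced genes 9 were higher and 6 lower, and the widest change was the fall of ADM, the vasodilator peptide adrenomedullin, from 1649 and 1743 to 141 and 121. Without shLuc replicates 1 and 2 in turn, the counts were 2 and 3 higher with 6 and 4 lower for fatty acid synthesis, 2 and 2 higher for oxidation, 8 and 6 lower for glycolysis, and 2 and 2 lower with 7 and 5 higher for hypoxia. FADS1 was not called in either fit. More oxidation genes were lower without shIMPA1 replicate 1, in a fit that called more of all genes lower too.

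A good part of the lysosome and autophagy genes rose, more so in replicate 2. Of 33 genes 13 were higher and 2 lower (median log2 fold change 0.39, 0.18 in replicate 1 and 0.51 in replicate 2), and 26 of the 33 were higher in replicate 2 than in replicate 1. NEU1, the lysosomal sialidase, stood at 819 and 806 in shLuc and at 1729.5 and 2874 in shIMPA1 (limma log2 fold change 1.46, SE 0.19, adjusted p = 0.000369). TFEB, a transcription factor of lysosomal genes, stood at 502 and 580.2, then 1305 and 1046, and FLCN, which restrains TFEB at the lysosome, at 559.8 and 498, then 993 and 1435. MAP1LC3B, an autophagosome protein, stood at 1103 and 1316, then 2236 and 2814, and SQSTM1, the cargo receptor p62, at 3305 and 3200.1, then 5004 and 6330.3. GPNMB, a glycoprotein of lysosomes and melanosomes, was uneven, at 137 and 128, then 400.3 and 1557. GLA and NPC2, a lysosomal hydrolase and a sterol carrier, were lower. Without either shLuc library 7 genes were higher and 1 lower, NPC2 having lost its call, and without shIMPA1 replicate 1, 21 were.

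Early genes of growth-factor signalling separated the libraries. Of 25 genes induced by ERK or feeding back on it, 4 rose and 2 fell, beside 14% and 16.2% of all genes tested. The count that rose was near the all-gene share and the count that fell was under it. The medians were 0.37 in replicate 1 and -0.12 in replicate 2, and 21 of the 25 were lower in replicate 2. FOS stood at 502 and 465 in shLuc, at 1015 in replicate 1 and at 392 in replicate 2. JUN (4481 and 3759, then 4912 and 2273) and EGR1 (534 and 464, then 661 and 189) showed the same order, with replicate 1 above and replicate 2 below both shLuc libraries. None of these 3 was called. The ERK phosphatase DUSP4 (806 and 829, then 2933 and 3613) and the survival gene IER3 (273 and 249, then 1558 and 842) rose in both. Without either shLuc library 0 genes were lower. Without shIMPA1 replicate 2 the list held 12 genes higher and 1 lower, and without shIMPA1 replicate 1 it held 5 and 6. Among 21 receptor tyrosine kinases 4 were higher and 7 lower, led by EPHA3 (606 and 602, then 1577 and 1603) and EPHA7 (945 and 956, then 351 and 297), ephrin receptors that moved apart. The receptor list without shLuc replicate 1 or 2 held 2 higher and 2 lower in each case.

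Targets of the YAP and TEAD factors, which answer to cell contact and tension, leaned lower, with 10 of 22 lower and 6 higher (median log2 fold change -0.43). CCN2, a matricellular protein, stood at 64.8 and 61.3 in shLuc and at 9.87 and 6.90 in shIMPA1, and CCN1 at 369.9 and 417, then 226 and 84.6. AMOTL2, which holds YAP in the cytoplasm, went up, from 358 and 410.4 to 1683 and 1445. Of 32 actin cytoskeleton genes 10 were lower and 2 higher, with VIL1, the bundling protein villin (1529 and 1651, then 120.3 and 51.8), and the filamin gene FLNA (2886 and 3268, then 1696 and 1309.7) among the lower. In the matrix, 8 of 24 collagens and matrix enzymes were lower and 3 higher. COL6A1 (878 and 872, then 2185 and 1909) and COL6A2 (72.9 and 69.1, then 212 and 196), chains of the same collagen VI fibre, rose together, and lysyl oxidase LOX fell (336 and 342, then 142 and 72.5). Without shLuc replicates 1 and 2 in turn, the YAP list held 6 and 4 lower with 3 and 4 higher, and the actin list 6 and 5 lower with 1 and 1 higher. CCN1 was not called in either fit. Without shIMPA1 replicate 1 or 2 the matrix list held 6 and 5 higher.

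HOX genes, which fix position along the body axis, rose in part, with members of all 4 clusters among them. Of 37 HOX genes and cofactors 12 were higher and 3 lower (median log2 fold change 0.48, and 0.48 and 0.51 in replicates 1 and 2). HOXD8 stood at 34.2 and 20.1 in shLuc and at 516 and 559.9 in shIMPA1 (limma log2 fold change 4.30, SE 0.33, adjusted p = 9.24e-06), and its neighbour HOXD9 at 9.90 and 12.3, then 112 and 128. HOXA9 (194 and 215, then 620.2 and 532) and HOXC13 (401 and 382, then 789 and 931) rose as well, whereas HOXB13, the prostate HOX gene, fell from 10795 and 12205 to 6171 and 7366. Reads of overlapping genes within a cluster may not be separable, since strand use in counting is not given in the sources used here. Of 31 Polycomb complex genes, whose products silence HOX clusters among others, 13 were lower and 2 higher (median -0.04), including the methyltransferase EZH2 (2806 and 2875, then 2379 and 1406) and the reader CBX2 (1124 and 1141, then 618 and 499.6). The HOX list without shLuc replicate 1 or 2 held 4 and 9 higher with 2 and 1 lower, and the Polycomb list 4 and 3 lower with 1 and 0 higher. EZH2 lost its call in both and without shIMPA1 replicate 2. Without shIMPA1 replicate 1 the HOX list held 6 lower, and without shIMPA1 replicate 2 the Polycomb list held 4 higher.

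Luminal transcription factors and androgen-induced genes moved both ways. Of 19 luminal factors 5 were higher and 6 lower, beside 14% and 16.2% of all genes tested (median log2 fold change -0.10). Among the higher ones, GATA2, a zinc-finger transcription factor, stood at 2435 and 2761 in shLuc and at 7387 and 5304 in shIMPA1. The epithelial factor GRHL2, also higher, stood at 1403 and 1535, then 2359.6 and 2754. Of 33 androgen-induced genes 12 were higher and 6 lower (median log2 fold change 0.19). The kallikrein genes KLK4 (3254 and 3793, then 8929 and 8358) and KLK15 (43.2 and 42.0, then 258 and 168) rose, and KLK3, which encodes PSA, was not called (284 and 273, then 386 and 274). FOLH1, which encodes PSMA, fell from 9173 and 9209 to 4870.0 and 5996. MSMB, a secretory prostate protein, had no read in shLuc and few in shIMPA1 (2.69 and 12.9), beside 41.6 and 47.2 in shIMPDH2, the same order of libraries as for the basal keratins. The MSMB call was lost without either shLuc library or shIMPA1 replicate 2. AGR2, an endoplasmic reticulum protein of secretory epithelium, fell from 1146 and 921 to 179.5 and 204, and ANXA1, an annexin, from 255 and 179 to 26.0 and 33.6. Without shLuc replicates 1 and 2 in turn, the luminal factor list held 3 and 2 lower with 3 and 4 higher and the androgen list 3 and 4 lower.

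Among the clock genes 6 of 19 were higher and 1 lower, beside 14% and 16.2% of all genes (median log2 fold change 0.40). BHLHE40, a repressor in the clock, stood at 28.8 and 35.0 in shLuc and at 254 and 373 in shIMPA1 (limma log2 fold change 3.24, SE 0.24, adjusted p = 8.79e-06), and CIART, another repressor, at 228 and 248, then 553 and 814. The nuclear receptor RORB fell from 221 and 319 to 27.8 in replicate 1 and 0.863, a single read, in replicate 2. Of 27 potassium and calcium channel subunits 8 were higher and 11 lower. KCNMA1, the pore of the calcium-activated BK channel, stood at 296 and 302, then 1509 and 1819.6, while KCNMB4, its auxiliary subunit, fell from 1023 and 919.7 to 239.6 and 167. CACNA1H, a T-type calcium channel, rose from 34.2 and 34.1 to 445 and 536, and the inward rectifier KCNJ8 fell from 2368 and 2286 to 714 and 709. Of 33 interferon-induced and antigen presentation genes 5 were higher, close to the all-gene share of 14%, and 8 were lower, above the share of 16.2%. The membrane restriction factors IFITM1 (135 and 151, then 24.2 and 6.04), IFITM2 (286 and 329.9, then 82.6 and 46.6) and IFITM3 (709 and 914, then 312 and 217) fell together, and B2M, the light chain of class I antigen presentation, rose (13106 and 10018, then 17177 and 21752). Without shLuc replicates 1 and 2 in turn, the clock list held 3 and 2 higher, the channel list 7 and 5 higher with 8 and 7 lower, and the interferon list 3 and 2 higher with 3 and 3 lower. B2M lost its call without shLuc replicate 2. The clock and interferon lists held more genes higher without shIMPA1 replicate 1, in a fit that called more of all genes higher too.

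Set directly against shIMPDH2, with no control library in the contrast, 4627 of 17742 genes (26.1%) were called, 2232 (12.6%) higher and 2395 (13.5%) lower in shIMPA1. The cell-cycle and sterol lists were lower in shIMPA1 than in shIMPDH2 as well. The count was 27 of 34 for replication, 19 of 38 for mitosis, 16 of 26 for recombination repair and 22 of 32 for sterols, with medians of -0.90, -0.77, -0.79 and -0.70 and no member higher. Of the ATF4 and CHOP list 21 of 29 were higher and 1 lower (median 0.94), of the transporters 11 of 22 were higher and 3 lower, and of the heat shock list 12 of 24 were lower and 0 higher. SLC7A8, the light chain of an exchanger of neutral amino acids, stood at 240.3 and 210.3 in shIMPDH2 beside 6400.3 and 5001 in shIMPA1 (log2 fold change 4.65, limma adjusted p = 8.28e-08). CDKN2B stood at 469 and 480.2 in shIMPDH2 (log2 fold change 2.89), and ID1 stood at 9504 and 11263 (log2 fold change -2.59). By contrast SUSD2 was as low in shIMPDH2, at 56.6 and 61.9, and did not differ by the test (log2 fold change 0.38, limma adjusted p = 0.0902). The lysosome list was split in this contrast, with 5 of 33 higher and 7 lower. NEU1, at 1903 and 2050.3 in shIMPDH2, was not called (log2 fold change 0.17, limma adjusted p = 0.537). Leaving out 1 library moved the count of 4627 between 1430 (without shIMPDH2 replicate 2) and 7052 (without shIMPA1 replicate 1).

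**Figure D5:**
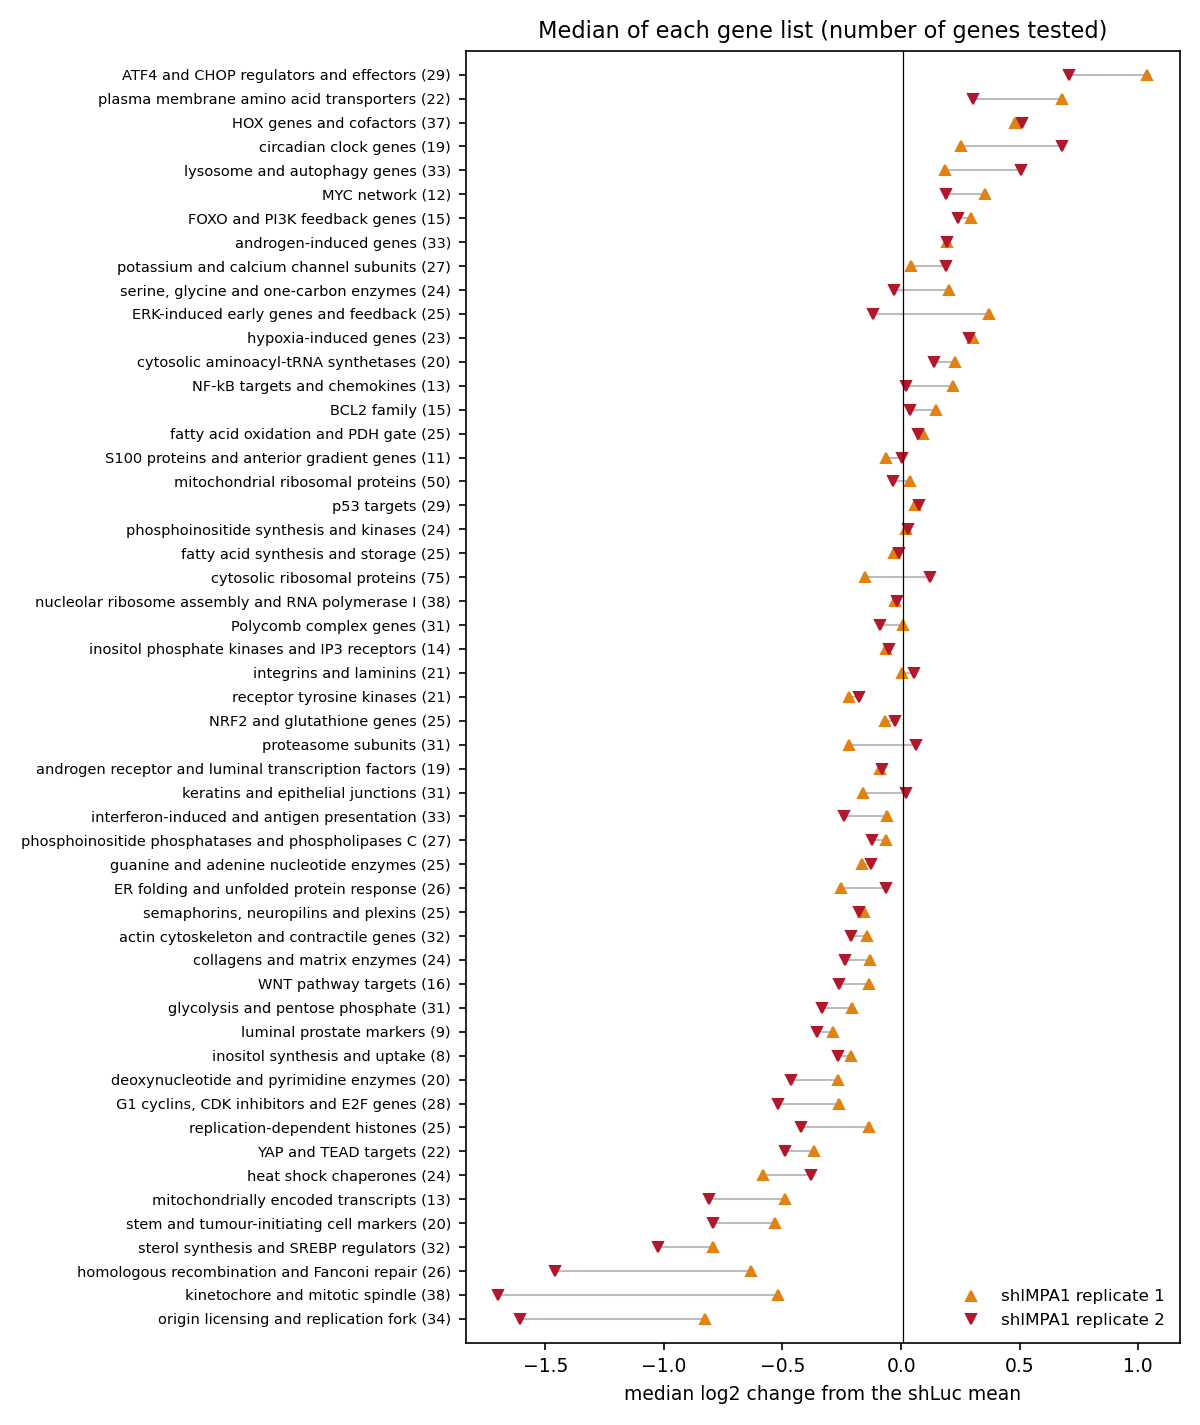
Median log2 change from the shLuc mean of each gene list with at least 8 genes tested, in shIMPA1 replicate 1 (triangles up) and replicate 2 (triangles down), ordered by the median of the fitted fold changes. The vertical line is the median of all genes in replicate 1 (0.01), and the number of genes tested stands in brackets. Replicates lie furthest apart for the 3 cell-cycle lists.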

How the data were processed

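Polyadenylated RNA of 22RV1 lines with shLuc, shIMPA1 or shIMPDH2 was sequenced, with 2 libraries per group. The tools named per the submitters' processing notes are Trimmomatic 0.36 for trimming, STAR 2.5.2b for alignment, featureCounts of Subread 1.5.2 for counting, and DESeq2, with GRCh38 as the genome. No annotation release, gene filter or strand setting is given in the sources used here. The expression signal deposited by the authors is a read count per gene divided by 1 size factor per library. This was tested on the values, of which 99.98% to 100% per library were whole multiples, within 0.05 reads, of what 1 read is worth. The log2 fold changes, p-values and adjusted p-values that the authors deposited belong to a comparison that the header does not name, and were not used.

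Of the 17811 Ensembl genes listed, 16275 took their symbol from the gene-name table, 60 from GENCODE 29, which also gave the coordinates, and 1476 had none. The 17742 genes that reached 10 in 2 or more libraries were tested. Log2(value + 1) was fitted with limma 3.58.1 (R 4.3.3) on all 6 libraries with a mean-variance trend and 3 residual degrees of freedom, and p-values were adjusted by Benjamini-Hochberg over all genes tested. The steps were tested on simulated data. On the recovered whole reads, edgeR 4.0.16 (quasi-likelihood) called 2566 genes higher and 2914 lower, and DESeq2 1.42.0 called 2160 and 2525. The other alternatives were another scaling, pseudocount or filter, no trend, only the groups compared, a replicate block and each library left out.

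The comparison, the 59 gene lists and the naming rule were chosen with earlier results of these data known. The rule took the 14 largest rises and falls among called genes with a mean of at least 1000, and the 6 largest of each with a mean of at least 200 whose shIMPA1 changes differed by under 0.1. It also took the 10 genes that separated the shIMPA1 libraries most in each direction, the up to 6 members of each list with the smallest adjusted p, and the 6 highest and lowest against both other groups. Members named beyond this rule were chosen after their values were seen. Promoter sequences are from RefSeq (GRCh38.p14). A few genes are not reported here.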

Additional observations from a re-analysis of the deposited data

How the results depend on the processing

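The counts of genes called higher and lower (2479 and 2882) and of genes called against shIMPDH2 (4627) stayed within 1.5 times under edgeR, DESeq2, TMM scaling, pseudocounts of 0.5 and 10, no filter or a filter at 50, and the fit on only the groups compared, which gave 1801, 2284 and 3422. Without a mean-variance trend they were 1598, 1910 and 2909, and IMPA1 (log2 fold change -0.52) was not called (limma adjusted p = 0.0671). The cause was not tested. With 1 library left out, the counts ranged from 1001 to 3728, from 1135 to 4212 and from 1430 to 7052, and the log2 fold change of IMPA1 from -0.66 to -0.37. That of EGR1 ranged from -1.39 to 0.41, its sign turning without shIMPA1 replicate 2. With 2 libraries a group, a fit without a shLuc library rests on 1 control. A fit without a shIMPA1 library takes its spread from shLuc and shIMPDH2 alone. The shIMPA1 libraries differed more than the shLuc libraries, so a call kept there says little about the shIMPA1 spread. Losses of calls in these fits cannot be compared with losses without a shLuc library. Of the 341 called genes that the naming rule picked, 228 kept the call in every fit that left out 1 library, and 84 lost it without shLuc replicate 1, 82 without shLuc replicate 2, 2 without shIMPA1 replicate 1 and 11 without shIMPA1 replicate 2. Members named beyond the rule, among them BIRC5, CDK1, SLC7A11 and MT-ND1, are not in this tally, and the report gives the calls they lost.

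No pairing by replicate number was seen in the values, where deviations of same-numbered libraries correlated at 0.0418, -0.0488 and 0.000266 between the pairs of groups. These correlations do not show how the replicates arose. With the replicate number as a block, 2392 genes were higher, 2906 lower and 4537 called against shIMPDH2, and the log2 fold change of IMPA1 was -0.52 (limma adjusted p = 0.0170).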

Other observations

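Of 20 deoxynucleotide and pyrimidine synthesis genes, 9 were lower and 2 higher, and of 25 genes of purine nucleotide synthesis and salvage, 8 were lower and 0 higher, beside 16.2% and 14% of all genes tested. HPRT1, which salvages guanine and hypoxanthine, stood at 3142 and 2953 in shLuc and at 1277 and 1127 in shIMPA1. Both shIMPA1 values of HPRT1 were below both shLuc values (log2 fold change -1.34). IMPDH2 itself stood at 4269.9 and 5032 in shLuc and at 4435 and 5055 in shIMPA1, overlapping values that were not called (limma adjusted p = 0.883). Without shLuc replicates 1 and 2 in turn, the deoxynucleotide list held 5 and 2 lower genes and 0 higher, and without shIMPA1 replicate 1 it held 14 lower.

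Of 25 semaphorins, neuropilins and plexins, 5 were higher and 5 lower, and of 25 NRF2 and glutathione genes 6 were higher and 4 lower, beside 14% and 16.2% of all genes. AKR1C3, a steroid-reducing enzyme that makes testosterone, stood at 117 and 123 in shLuc and at 15.3 and 11.2 in shIMPA1 (log2 fold change -3.10). Of 3 neuroendocrine markers tested, 1 was higher, 1 lower and 1 not called (median log2 fold change -0.006). The higher one was CHGA, the granule protein chromogranin A. It stood at 540.0 and 596 in shLuc and at 1283 and 1129 in shIMPA1, both above shLuc. The lower one was ENO2, whose call was lost without either shLuc library or shIMPA1 replicate 2. Without shLuc replicate 1 or 2 the semaphorin list held 1 lower gene in each case and 3 and 4 higher, and the NRF2 list 1 and 3 higher.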
